A study of Mus musculus with 18 samples.

Results

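Circular RNAs of mouse brain were compared between mice with both RNA editing enzymes disabled, called Adar1-2KO, and wild type mice, with 3 Illumina libraries of each. A circle was included when it had at least 5 back-splice reads in at least 3 of the 6 libraries. This kept 28595 circles of the 160910 listed in these libraries and of the 208914 listed over all 9 Illumina libraries of the study. Of the 160910, 90655 were listed in 1 library only. Unless stated otherwise, counts of circles below refer to those that passed this filter. Circles that share a splice site with a named circle are counted without it. A circle or host gene that passed a filter through 1 genotype alone had to differ.

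Each library came from total RNA of the whole brain of male mice aged 3 to 4 months, and the strain label was C57BL/6J for both genotypes. The labels call the 3 libraries of a genotype biological replicates. Linear RNA was depleted with RNase R, circles were copied by rolling reverse transcription from random hexamers, and the cDNA was amplified by PCR and fragmented by tagmentation. Molecular identifiers are not mentioned in the protocol, so read counts are not counts of molecules. Adar1-2KO mice carried 4 alterations at once. The labels give them as Adar1E861A/E861A, an amino acid change that leaves the editing enzyme ADAR1 catalytically inactive, loss of Ifih1, loss of Adar2 (gene Adarb1), and the Gria2R/R allele, which encodes the edited form of an AMPA receptor subunit. The wild type mice had none of these alterations. The contribution of each alteration cannot be told apart in this comparison. A second mutant, Adar2KO, which lacks Adar2 and carries the same Gria2 allele, is quoted only for its values. It was compared by the authors with the same wild type libraries.

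A circular RNA forms when the splicing machinery joins the end of an exon (the donor site) to the start of the same or an upstream exon (the acceptor site). Reads across this back-splice junction identify the circle, and reads that leave the same sites for their linear partners are forward-splice reads. ADAR enzymes convert adenosine to inosine in double-stranded RNA, and paired inverted repeats in the flanking introns are known to bring back-splice sites together. Brain is rich in circles because neurons express long multi-exon genes and circles are stable. In whole tissue, fewer cells of a type and less RNA per cell cannot be told apart.

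The wild type libraries held 1516772 to 3169249 back-splice reads over 54244 to 76743 circles. Of the Adar1-2KO libraries, replicates 1 and 2 were of similar depth, with 70671 and 59281 circles. Replicate 3 stood apart: its 4308264 back-splice reads, the most of the 6, fell on 21736 circles, which is 198 reads per listed circle against 28.0 to 47.9 elsewhere. It listed 50.6% of the circles tested, and the other libraries listed 88.2% to 93.9%. The plot of circles listed by abundance shows that this shortfall lay among circles of low level. Replicate 3 listed 34.1% of tested circles with a mean under 3 CPM (counts per 1000000 back-splice reads of tested circles) over the other 5 libraries, and 99.8% of those above 300. Back-splice levels in replicate 3 had Spearman correlations of 0.439 to 0.468 with the other 5 libraries, and these had 0.574 to 0.663 among themselves. Tests of circles and host genes, and the medians of lists, are therefore given with and without it. The 3 wild type libraries and Adar1-2KO replicate 2 ran on the same flow cell in different lanes, replicate 3 ran on other flow cells, and the flow cell of replicate 1 is not known. Lane and genotype cannot be told apart.

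**Figure D1:**
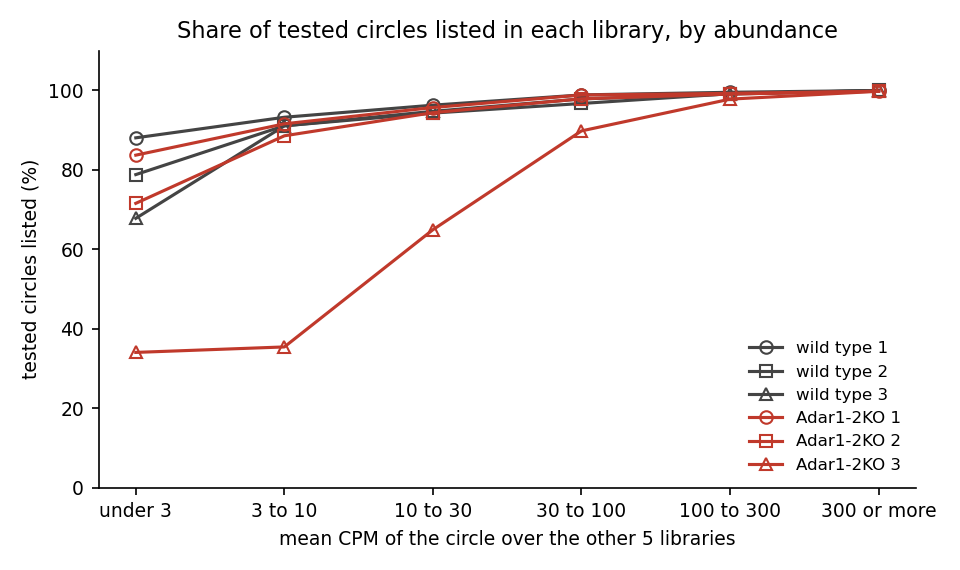
Percent of the tested circles listed in each of the 6 libraries (vertical axis) by class of mean back-splice CPM over the 5 libraries other than Adar1-2KO replicate 3 (horizontal axis), with 1 line per library. Adar1-2KO replicate 3 listed 34.1% of circles in the lowest class and 99.8% in the highest, and the other 5 libraries were at 67.8% to 100% throughout.

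At the level of single circles, 5 of 28595 passed the quasi-likelihood F-test of edgeR at an adjusted p under 0.05, which is 0.0175% of those tested. Circles of Stxbp5, Lrp1b and Zbtb20 rose, and circles of Wdr49 and the long non-coding RNA gene A230057D06Rik fell. The share was 0.0105% for higher and 0.00699% for lower circles. Without Adar1-2KO replicate 3, 20 of 27385 passed, or 0.073%, with 7 higher (0.0256%) and 13 lower (0.0475%), and the 5 were among them. That filter leaves out circles listed only in Adar1-2KO but keeps those listed only in wild type, which had to differ. Asking for 5 reads in 2 of the 5 libraries gave 24 of 39148, or 0.0613%. DESeq2 on all 6 libraries called 88 of 20358 circles with an adjusted p, or 0.432%, and kept 4 of the 5. At an unadjusted p under 0.05 the edgeR fit counted 1107 higher (3.87%) and 1314 lower circles (4.6%), together 8.47% of those tested. Values of the genotypes did not overlap for 13.5% of circles, 3.6% higher and 9.91% lower in Adar1-2KO. Random labels of 3 libraries against 3 give such a split with a probability of up to 0.1, both directions together. These shares include replicate 3, which listed 50.6% of tested circles, and circles it did not list count as 0. No such share is given without it. Leaving out wild type replicate 1, or wild type replicate 2, left no circle at an adjusted p under 0.05 in edgeR. In these fits 643 of 23411 and 636 of 24610 circles had an unadjusted p under 0.05. Levels below are CPM, meaning reads of a junction per 1000000 back-splice reads of the tested circles in that library, with TMM-scaled library sizes. For host genes the reads of the tested host genes take that place. Fold changes are log2 of Adar1-2KO over wild type with the standard error (SE) of the fit.

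**Figure D2:**
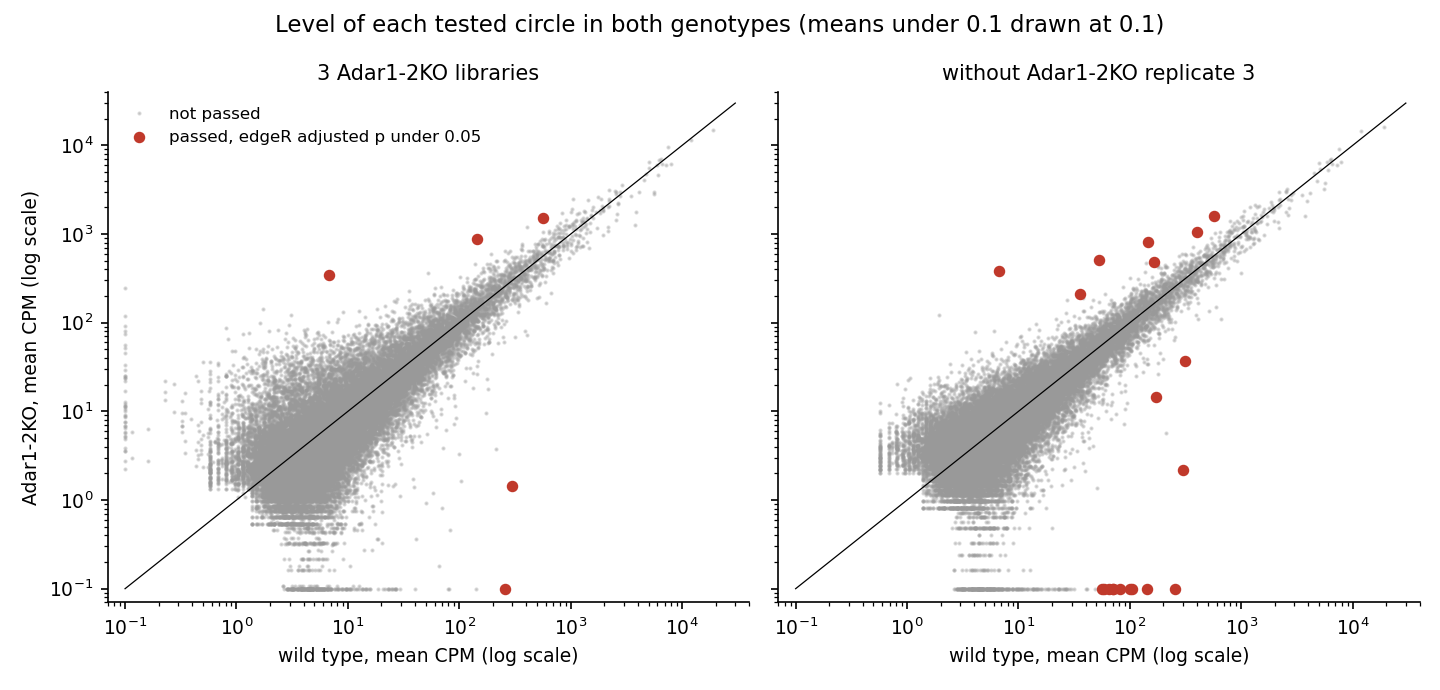
Mean level of each tested circle in wild type (horizontal axis) and in Adar1-2KO (vertical axis), in back-splice CPM on log scales, with all 3 Adar1-2KO libraries and without replicate 3, and with means under 0.1 CPM drawn at 0.1. Most circles lie along the diagonal, and the circles that passed are drawn in red, 3 above and 2 below it with all libraries.

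Wdr49 encodes a WD-repeat protein. Its circle of exons 4 to 6 (GRCm39 chromosome 3, 75265654 to 75304408, minus strand) had 1039, 554 and 403 reads in the wild type libraries and 0, 9 and 0 in Adar1-2KO. The level was 300 ± 49.9 CPM (SD, n = 3) in wild type and 1.45 ± 2.5 CPM (SD, n = 3) in Adar1-2KO. The groups were far apart, and the few reads left came from replicate 2. The log2 fold change was -8.11 ± 0.89 (SE; edgeR adjusted p = 0.00446) and -7.32 ± 0.74 without replicate 3 (adjusted p = 0.0184 in edgeR). A smaller circle of exons 5 and 6 from the same donor site had 372, 90 and 96 reads in wild type against none in Adar1-2KO, at least 254-fold lower against a floor of 3 reads over the group, but did not pass (edgeR adjusted p = 0.186). The 5 other circles with the donor of exon 6, this one included, together had 383, 94 and 100 reads in wild type against 8, 2 and 0 in Adar1-2KO. The Adar2KO libraries also had no read of the circle of exons 4 to 6. The pair of junctions is printed to show the donor they share, 25 bases of exon 6 in lower case, joined to 25 bases of exon 4 or exon 5 in capitals, from GENCODE vM21 transcripts.
Wdr49 exons 4 to 6: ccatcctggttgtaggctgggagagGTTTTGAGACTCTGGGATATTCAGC
Wdr49 exons 5 to 6: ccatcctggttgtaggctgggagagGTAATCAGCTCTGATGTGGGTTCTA
The adjusted p of the larger circle passed 0.05 in 2 of the 6 edgeR fits that left out 1 library, and reached 0.101 without Adar1-2KO replicate 1.

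A230057D06Rik is a long non-coding RNA gene in the Prader-Willi imprinted region. Its circle of exons 2 to 6 (GRCm39 chromosome 7, 61561111 to 61575168, minus strand) had 843, 368 and 440 reads in wild type against none in any Adar1-2KO library. The wild type level was 256 ± 67.5 CPM (SD, n = 3), and Adar1-2KO was at least 752-fold lower against a floor of 3 reads over the group (edgeR adjusted p = 0.00984, and 0.0154 without replicate 3). The circle entered the test through wild type alone and had to differ. Adar2KO had the circle, with 819, 696 and 747 reads. The zeros hold for this exact position. A circle whose genomic start lies 5 bases away, at the donor end of this minus-strand circle, was listed with 0, 3 and 3 reads in the Adar1-2KO libraries and none in wild type. In the CIRI2 tables, the authors' other caller, the exact circle had 1012, 469 and 509 reads in wild type against none in Adar1-2KO replicates 2 and 3, while the shifted circle had 114 and 133 reads in these 2 libraries and none in wild type. The fold for the exact junction therefore depends on how the 2 junctions are counted. The other 8 circles with the same donor had 103, 83 and 35 reads in wild type against none in Adar1-2KO, whereas the 13 others with the same acceptor had 188, 148 and 83 reads in wild type against 346, 257 and 425 in Adar1-2KO. The junction below joins the last 25 bases of exon 6, in lower case, to the first 25 bases of exon 2, in capitals, and shows the donor that lost its reads.
A230057D06Rik exons 2 to 6: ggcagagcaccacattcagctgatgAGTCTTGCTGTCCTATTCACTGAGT
Leaving out Adar1-2KO replicate 1 or 2 raised the edgeR adjusted p to 0.101 and 0.0675. Without any 1 wild type library the circle no longer reached the filter.

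Stxbp5 encodes tomosyn, a regulator of synaptic vesicle release. A circle within it (GRCm39 chromosome 10, 9717615 to 9744497, minus strand), which the authors' tables class as intronic, had 24, 5 and 14 reads in wild type against 1292, 713 and 973 in Adar1-2KO. The level was 6.73 ± 3.79 CPM (SD, n = 3) against 343 ± 76.9 CPM (SD, n = 3), so each mutant library lay far above each wild type library. The log2 fold change was 5.68 ± 0.54 (SE; edgeR adjusted p = 0.00271) and 5.85 ± 0.41 without replicate 3 (adjusted p = 0.0131 in edgeR). Adar2KO had 22, 6 and 37 reads. The other 7 circles with the same acceptor had 1, 0 and 0 reads in wild type against 185, 52 and 17 in Adar1-2KO, while 5 others with its donor had 48, 6 and 27 reads against 39, 9 and 110. The main exonic circle of Stxbp5, exons 17 to 18, had 808, 479 and 512 reads in wild type against 1524, 819 and 524 in Adar1-2KO, a log2 fold change of 0.27 ± 0.42 (SE). No exon pair of GENCODE vM21 had the span of the passing circle, so its sequence is not printed. Its adjusted p rose above 0.05 without wild type replicate 1 (0.0734) or wild type replicate 2 (0.0550) in edgeR, and stayed below it in the other 4 fits that left out 1 library.

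Lrp1b belongs to the LDL receptor family of large membrane proteins. Its circle of exons 67 to 71 (GRCm39 chromosome 2, 40615394 to 40641028, minus strand; 594 nt once spliced) had 469, 301 and 187 reads in wild type against 2689, 1523 and 3697 in Adar1-2KO. The level was 145 ± 17.1 CPM (SD, n = 3) against 874 ± 139 CPM (SD, n = 3). The groups did not overlap, and the log2 fold change was 2.59 ± 0.26 (SE; edgeR adjusted p = 0.00573), or 2.49 ± 0.20 without replicate 3 (adjusted p = 0.0154 in edgeR). Of 62 tested circles of Lrp1b, 4 were higher and 6 lower at an unadjusted p under 0.05 in edgeR, against 3.87% and 4.6% of all circles. The circle of exons 68 to 72 went the other way, with 46, 32 and 32 reads in wild type against 5, 0 and 0 in Adar1-2KO, but did not pass. The 11 other circles with the acceptor of exon 67 had 1253, 1106 and 629 reads in wild type against 1281, 909 and 1724 in Adar1-2KO. The 4 others with the donor of exon 71 had 69, 37 and 23 reads in wild type against 212, 97 and 107 in Adar1-2KO. The junction joins the end of exon 71, in lower case, to the start of exon 67, in capitals, and is shown because both sites also serve other circles that did not pass.
Lrp1b exons 67 to 71: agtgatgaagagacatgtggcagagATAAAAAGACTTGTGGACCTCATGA
Its adjusted p stayed below 0.05 in edgeR only when replicate 3 of Adar1-2KO was the library left out, and was 0.0522 to 0.101 without each of the other 5.

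Zbtb20 encodes a zinc finger transcription factor of hippocampal neurons and astrocytes. Its circle of exons 4 to 7 (GRCm39 chromosome 16, 43390044 to 43398111, plus strand) had 1764, 1172 and 778 reads in wild type against 4801, 3471 and 4868 in Adar1-2KO. The level was 568 ± 38.8 CPM (SD, n = 3) against 1522 ± 173 CPM (SD, n = 3). The log2 fold change was 1.42 ± 0.18 (SE; edgeR adjusted p = 0.0299), and 1.53 ± 0.14 without replicate 3 (adjusted p = 0.0184 in edgeR). The groups did not overlap, but this was the least stable of the 5 calls. DESeq2 gave an adjusted p of 1 for it, and the edgeR adjusted p was 0.198 to 0.336 without each library other than Adar1-2KO replicate 3. On Nanopore, the circle had 75 and 84 reads in wild type replicates 2 and 3 and none in the 3 Adar1-2KO libraries, the opposite direction. Adar2KO had 0, 168 and 0 Nanopore reads.

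**Figure D3:**
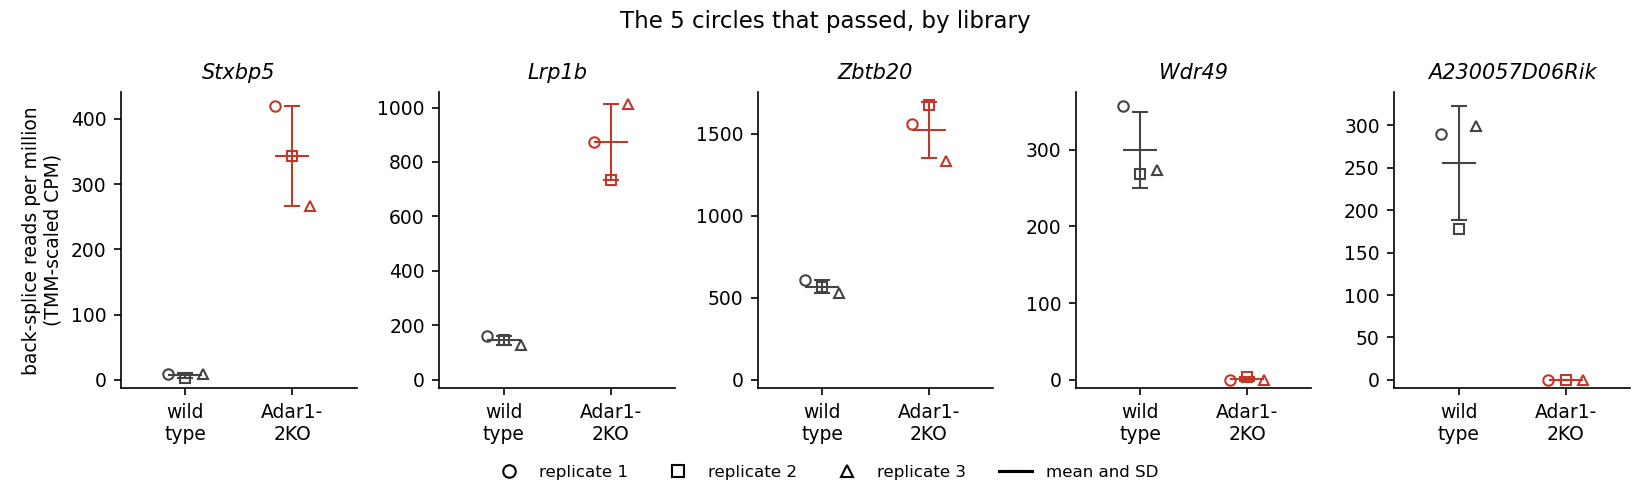
Level of the 5 circles that passed, in back-splice CPM on a linear scale from 0 (vertical axis, 1 panel per circle), for each wild type and Adar1-2KO library (points), with the group mean and SD. Stxbp5, Lrp1b and Zbtb20 lie higher in all 3 Adar1-2KO libraries, and Wdr49 and A230057D06Rik lie at or near 0 there.

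Among the circles of lowest p that missed the threshold, some were listed in all libraries of 1 genotype and in none of the other. Such circles, here and below, entered the test through that genotype alone and had to differ, whichever filter was used. Dennd1b encodes a DENN domain protein that activates Rab GTPases, and its circle of exons 4 to 5 (GRCm39 chromosome 1, 138967738 to 138969781, plus strand) had no read in wild type and 626, 244 and 1537 in Adar1-2KO. This is at least 588-fold higher against a floor of 3 reads over the group (edgeR adjusted p = 0.0551). Without replicate 3 and with 5 reads asked of 2 libraries, its edgeR adjusted p was 0.0278. Adar2KO had 626, 570 and 657 reads. The wild type zeros were not shared by Nanopore, where wild type replicates 2 and 3 had 48 and 34 reads of this circle and Adar1-2KO had 62, 19 and 175. Nanopore libraries differed in depth, and scaled to 1000000 reads of the library the mean was 208 in wild type and 154 in Adar1-2KO, the opposite direction. On Illumina, 13 other circles that start at the same acceptor had 9278, 4342 and 3336 reads in wild type against 8093, 4680 and 11149 in Adar1-2KO. The junction of this 170 nt circle is printed as the case where the platforms differed, with the end of exon 5 in lower case and the start of exon 4 in capitals.
Dennd1b exons 4 to 5: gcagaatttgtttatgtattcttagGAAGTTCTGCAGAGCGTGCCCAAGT

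The circle of exons 3 to 4 of Chchd6, a gene for a protein of the mitochondrial inner membrane, had no read in wild type and 225, 177 and 315 in Adar1-2KO (edgeR adjusted p = 0.162, and 0.0478 without replicate 3 with the filter of 2 libraries). On Nanopore it had 5 and 2 reads in wild type against 5, 7 and 20 in Adar1-2KO, means of 17.5 and 21.5 per 1000000 reads. Illumina reads of the Chchd6 circle in Adar2KO were 246, 138 and 162. The Nectin3 circle of exons 6 to 7, from a gene for a cell adhesion protein, had 1154, 856 and 580 reads in wild type against 3638, 1872 and 5652 in Adar1-2KO. Its groups did not overlap and its log2 fold change was 1.59 ± 0.23 (SE; edgeR adjusted p = 0.0682), or 1.39 ± 0.17 without replicate 3 (adjusted p = 0.0484 in edgeR). On Nanopore it was higher as well, with 27 and 38 reads against 173, 100 and 324, means of 168 and 401 per 1000000 reads. Illumina reads of the Nectin3 circle in Adar2KO were 1312, 913 and 2525.

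Among circles lower in Adar1-2KO, an intergenic one (GRCm39 chromosome 7, 91275537 to 91276021) counted 288, 339 and 241 reads in wild type against none in Adar1-2KO. It was at least 395-fold lower against a floor of 3 reads (edgeR adjusted p = 0.0537, and 0.0189 without replicate 3). Ankrd11, which encodes a chromatin regulator, had a circle of exons 3 to 4 with 274, 229 and 159 reads in wild type against 0, 0 and 18 in Adar1-2KO (edgeR adjusted p = 0.0682, and 0.0184 without replicate 3). On Nanopore the Ankrd11 circle had 10 and 12 reads in wild type against 22, 23 and 3 in Adar1-2KO. Scaled to 1000000 reads of the library, the means were 56.5 and 43.7, lower in Adar1-2KO but not near 0. The Rwdd1 circle of exons 2 to 3 had 231, 112 and 113 reads in wild type against 0, 0 and 9 in Adar1-2KO (edgeR adjusted p = 0.109, and 0.0354 without replicate 3). The Cabin1 circle of exons 27 to 29, from the gene of a calcineurin inhibitor, had 235, 163 and 125 reads in wild type against none in either mutant (edgeR adjusted p = 0.119, and 0.0218 without replicate 3). Nanopore reads of the Cabin1 circle were present in Adar1-2KO, 19, 7 and 6, and in wild type, 18 and 3, means of 24.9 and 51.9 per 1000000 reads. The Lrba circle of exons 5 to 22 had 177, 178 and 73 reads in wild type against 0, 0 and 2 in Adar1-2KO, a ratio of 292 with an exact 95% counting interval of 80.4 to 2421 that covers counting error only (edgeR adjusted p = 0.162, and 0.0484 without replicate 3). The Lrba circle had no Illumina read in Adar2KO. By contrast, Adar2KO had 208, 259 and 237 reads of the intergenic circle, 316, 267 and 393 of Ankrd11, and 142, 152 and 196 of Rwdd1.

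Other circles passed only without Adar1-2KO replicate 3. The Klhdc2 circle of exons 3 to 5, from a gene for a ubiquitin ligase substrate receptor, was low in wild type at 176, 82 and 85 reads. Adar1-2KO replicates 1 and 2 had 1979 and 797 reads, and replicate 3 had 234. Its log2 fold change was 3.2995 ± 0.31 (SE) without replicate 3 (edgeR adjusted p = 0.0184) and 2.78 ± 0.68 with it (adjusted p = 0.482 in edgeR). The circle of exon 2 of Chsy1, a chondroitin synthase gene, had 493, 315 and 247 reads in wild type against 1482, 1024 and 959 in Adar1-2KO, with a log2 fold change of 1.59 ± 0.19 (SE) without replicate 3 (edgeR adjusted p = 0.0484). A circle of Elfn2, which encodes a synaptic protein, had 813, 835 and 377 wild type reads, 106 and 81 in replicates 1 and 2, and 494 in replicate 3. An intergenic circle (GRCm39 chromosome 2, 50222893 to 50224670) counted 414, 423 and 252 reads in wild type against 32, 38 and 0 in Adar1-2KO. Klhdc2 and Elfn2 lay closer to wild type in replicate 3 than in the other mutant libraries.

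A Rims2 circle (exons 18 to 20; GRCm39 chromosome 15, 39398234 to 39430439), chosen after its values were seen, turned its direction with replicate 3. It had 140, 105 and 102 reads in wild type, none in replicates 1 and 2, and 1762 in replicate 3. The edgeR adjusted p was 0.0484, lower in Adar1-2KO, without replicate 3, and 0.778 with all libraries, at a log2 fold change of 1.57 ± 1.32 (SE). Nanopore gave 3 and 8 reads in wild type against 9, 12 and 123 in Adar1-2KO, means of 28.7 and 81.0 per 1000000 reads. Rims2 encodes a scaffold of the presynaptic active zone.

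Gabra2 and Ccser2 each had several circles with differences in 1 direction. Gabra2 encodes the alpha 2 subunit of the GABA-A receptor, the main inhibitory receptor of the brain. Its circle of exons 4 to 8 had 299, 223 and 137 reads in wild type against 1137, 572 and 1187 in Adar1-2KO, with a log2 fold change of 1.67 ± 0.35 (SE), and did not pass. From exons 4 to 7, reads were 123, 66 and 47 against 621, 448 and 434, and passed without replicate 3 (log2 fold change 2.56 ± 0.28, SE; edgeR adjusted p = 0.0292). The circle of exons 5 to 8 (GRCm39 chromosome 5, 71163450 to 71171979, minus strand) was absent from all 3 wild type libraries and had 390, 131 and 311 reads in Adar1-2KO (edgeR adjusted p = 0.162), at least 203-fold higher against a floor of 3 reads over the group. It was also absent from wild type on Nanopore, against 29, 33 and 44 reads in Adar1-2KO. The 2 other circles with the acceptor of exon 5 had no read in wild type and 36, 26 and 38 in Adar1-2KO, and 68, 47 and 63 in Adar2KO. All 3 junctions are printed because they differ only in which donor, in lower case, meets which acceptor, in capitals.
Gabra2 exons 4 to 8: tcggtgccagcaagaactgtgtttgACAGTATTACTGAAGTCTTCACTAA
Gabra2 exons 5 to 8: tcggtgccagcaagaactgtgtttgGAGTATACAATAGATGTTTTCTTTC
Gabra2 exons 4 to 7: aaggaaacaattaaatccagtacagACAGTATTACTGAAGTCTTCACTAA
Wild type used the acceptor of exon 4 with both donors, while the acceptor of exon 5 was read only in the mutants. Gabra2 is known to carry a variant of the C57BL/6J substrain. Whether the wild type and mutant mice differ at that variant was not tested.

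Ccser2, a coiled-coil serine-rich protein gene, had 3 circles that start at exon 2. The circle of exons 2 to 4 had 371, 180 and 124 reads in wild type against 0, 0 and 36 in Adar1-2KO (edgeR adjusted p = 0.255, and 0.0229 without replicate 3). The circle of exons 2 to 3 had 190, 150 and 111 against 0, 0 and 42, and that of exons 2 to 5 had 160, 147 and 73 against 0, 0 and 13. Their reads in Adar1-2KO came from replicate 3 alone. Adar2KO had no Illumina read of these 3 circles. A circle of exons 4 to 5, which does not use the acceptor of exon 2, was not lower, with 54, 11 and 18 reads in wild type against 108, 52 and 88 in Adar1-2KO. On Nanopore the circle of exons 2 to 4 had 20 and 15 reads in wild type against 11, 8 and 7 in Adar1-2KO, means of 88.9 and 20.6 per 1000000 reads, so the Illumina zeros were not zeros there.

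**Figure D4:**
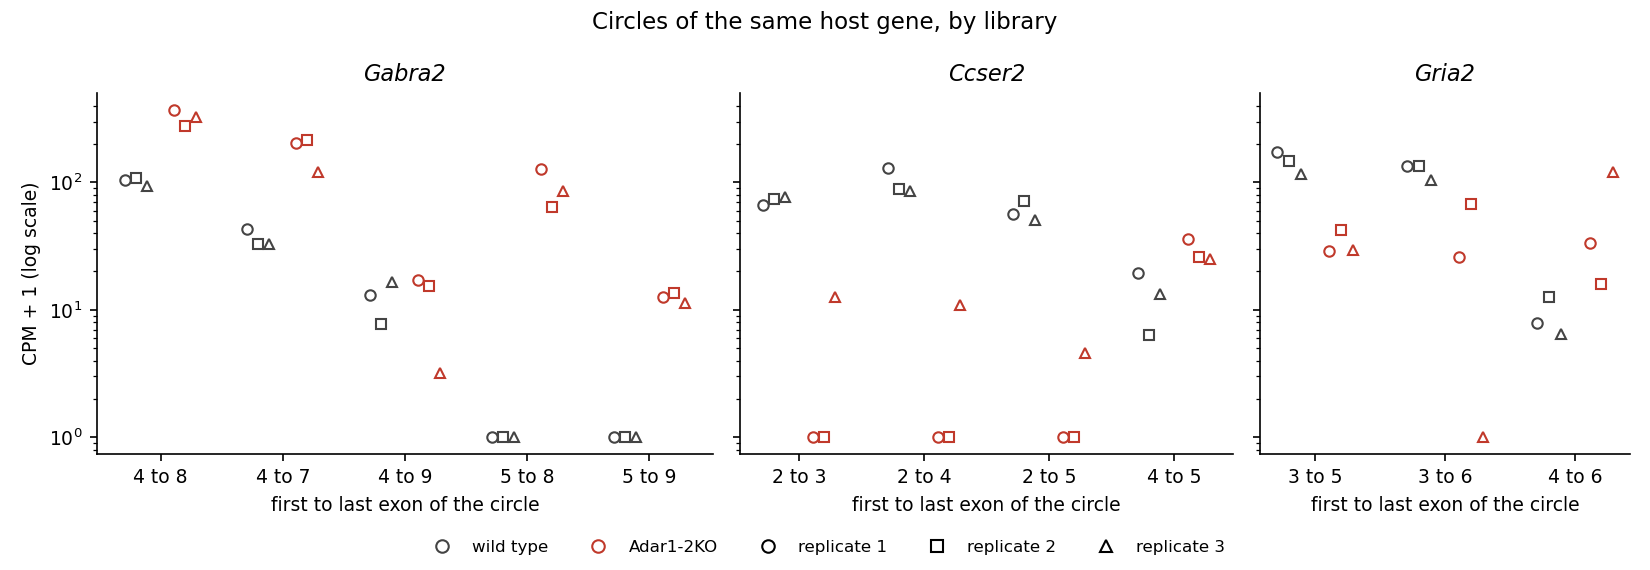
Level of circles of Gabra2, Ccser2 and Gria2, as back-splice CPM plus 1 on a log scale (vertical axis), in each wild type and Adar1-2KO library (points), with the exons of each circle named on the horizontal axis. Gabra2 circles of exons 5 to 8 lie at 0 in wild type, and Ccser2 circles that start at exon 2 lie at 0 in Adar1-2KO replicates 1 and 2.

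Of the 4 altered genes, Gria2, Adarb1 and Adar had tested circles. The Gria2 circle of exons 3 to 5 (GRCm39 chromosome 3, 80634139 to 80648505, minus strand) had 498, 301 and 170 reads in wild type against 86, 85 and 104 in Adar1-2KO, with a log2 fold change of -2.18 ± 0.48 (SE; edgeR adjusted p = 0.482). For exons 3 to 6 the reads were 387, 277 and 153 against 77, 139 and 0. By contrast, exons 4 to 6 gave 20, 24 and 8 reads in wild type against 100, 31 and 435 in Adar1-2KO. Adar2KO had 75, 111 and 175 reads of the circle of exons 3 to 5. Of 8 tested Gria2 circles, 5 had an unadjusted p under 0.05 in edgeR, against 8.47% of all circles, and none passed. The junction of exons 3 to 5 lies in the part of Gria2 upstream of the edited exon, with exon 5 in lower case and exon 3 in capitals.
Gria2 exons 3 to 5: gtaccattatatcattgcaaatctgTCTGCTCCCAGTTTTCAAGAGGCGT
The Adarb1 circle with most reads (GRCm39 chromosome 10, 77130537 to 77148360) had no read in wild type and 288, 134 and 724 in Adar1-2KO, at least 280-fold higher against the floor (edgeR adjusted p = 0.162). In Adar2KO this circle had 177, 239 and 236 reads. Another Adarb1 circle, from 77146940 to 77158464, was listed in wild type with 26, 18 and 8 reads and in neither mutant. The direction thus depended on the circle of this deleted gene. The labels do not say which part of Adarb1 was removed. The Adar circle of exons 2 to 6 had 71, 41 and 11 reads in wild type against 27, 0 and 6 in Adar1-2KO (edgeR adjusted p = 0.58). No circle with Ifih1 as its only host was listed in any of the 6 libraries, and none was tested. Summed per host gene, the log2 fold change was 1.44 ± 0.39 (SE) for Adarb1, -0.85 ± 0.24 for Gria2 and -1.46 ± 0.70 for Adar, and none of the 3 passed.

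Summed over the circles of a host gene, 7 of 6268 genes passed in edgeR, or 0.112%, with 3 higher (0.0479%) and 4 lower (0.0638%). Without replicate 3, 27 of 6120 passed, or 0.441%, with 13 higher (0.212%) and 14 lower (0.229%). DESeq2 called 29 of 4156 host genes with an adjusted p, or 0.698%. Wdr49 had 1427, 653 and 503 reads in wild type against 24, 15 and 9 in Adar1-2KO, a log2 fold change of -6.19 ± 0.44 (SE; edgeR adjusted p = 7.26e-05), and passed whichever library was left out. Gabra2 had 477, 308 and 215 reads against 2252, 1214 and 2446 (log2 fold change 2.05 ± 0.23, SE; edgeR adjusted p = 0.0173). Ccser2 had 869, 516 and 341 against 200, 79 and 182 (-2.40 ± 0.32, SE; edgeR adjusted p = 0.0347). The Ccser2 sum joins circles that were lower with the circle of exons 4 to 5, which was not. Zbtb20 had 1936, 1277 and 836 reads against 5099, 3748 and 6269 (1.42 ± 0.17, SE; edgeR adjusted p = 0.0195). Chchd6 had 6, 0 and 3 reads in wild type against 225, 177 and 315 in Adar1-2KO (5.76 ± 0.82, SE; edgeR adjusted p = 0.0381), and could not be tested without replicate 3 because too few libraries reached the minimum. No wild type library reached 10 reads of Chchd6, so it entered the test through Adar1-2KO alone and had to differ. Arhgap35, which encodes a GTPase activating protein, had 438, 330 and 207 reads against 95, 47 and 90 (-2.58 ± 0.37, SE; edgeR adjusted p = 0.0457). A230057D06Rik had 1468, 716 and 673 against 418, 295 and 467 (-1.76 ± 0.26, SE; edgeR adjusted p = 0.0457). No host gene other than Wdr49 passed without wild type replicate 1, 2 or 3, each left out in turn.

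Of the circles of A230057D06Rik, 9 of 11 tested circles had an unadjusted p under 0.05 in edgeR, against 8.47% of all circles, and they did not share a direction. The circle from 61575059 to 61581241 had 61, 38 and 43 reads in wild type against none in Adar1-2KO, and that from 61561111 to 61578039 had 40, 40 and 15 against none. A circle from 61533001 to 61575168 had no read in wild type and 90, 64 and 143 in Adar1-2KO, at least 72.5-fold higher against the floor, and none in Adar2KO. The circle from 61463010 to 61575168 had 173, 134 and 80 reads against 240, 168 and 276, a log2 fold change of 0.39 ± 0.47 (SE). Within Arhgap35, the circle of exons 4 to 5 had 214, 147 and 120 reads in wild type against 35, 15 and 0 in Adar1-2KO, and that of exon 2 had 81, 78 and 23 against none. Adar2KO had 226, 130 and 266 reads of the Arhgap35 circle of exons 4 to 5.

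Circles listed in all libraries of 1 genotype and none of the other were counted as a description. With at least 5 reads in each wild type library and none in Adar1-2KO there were 217 of the 28595 circles. Chromosome 7 held 33 of the 217 and 1445 of the 28595. The reverse held for 41 circles. Without replicate 3 the counts for the 2 directions rest on unlike rules. At least 5 reads in each wild type library and none in Adar1-2KO replicates 1 and 2 were found for 285 circles. In the other direction, 536 circles had at least 5 reads in Adar1-2KO replicates 1 and 2 and none in wild type. This asks for 2 libraries rather than 3, and of the 536 only the 41 passed the filter. Of the 217, 15 were also without reads in all Adar2KO libraries, and 65 had at least 5 reads in each. Since positions are matched exactly, circles whose ends lay within 10 bases were looked up. Among the 217, 9 had such a neighbour with reads in Adar1-2KO. A Spred1 circle (GRCm39 chromosome 2, 116983479 to 117002567) is the extreme case, with 16, 9 and 7 reads in wild type against none in Adar1-2KO. Its neighbour, 6 bases away, had 3554, 1733 and 341 reads in wild type against 2066, 307 and 1870 in Adar1-2KO.

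The 10 circles of highest level in wild type, from Zfp609, Gigyf2, Hdgfl3, Rims2, Rbm4, Anks1b, Zfp148, Kat6b, Rims1 and Elf2, had log2 fold changes from -0.37 to 0.37, and none passed. Zfp609, a zinc finger gene, had the highest level, 17700, 22133 and 17033 CPM in wild type and 13099, 19330 and 12083 in Adar1-2KO. The Rims2 circle of exons 20 to 22 had 7618, 6881 and 7918 CPM in wild type and 8139, 9887 and 10884 in Adar1-2KO. Its groups did not overlap, but its log2 fold change of 0.37 ± 0.10 (SE) did not pass (edgeR adjusted p = 0.482). Over all tested circles the median log2 fold change was -0.27, and -0.02 without replicate 3. By abundance the median was -0.46 for circles of 3 to 10 CPM and 0.01 for those above 300 CPM. The lower median thus lay among circles that replicate 3 seldom listed. Intergenic circles had a median of -0.44 over 633 circles, and 30.6% of them were listed in replicate 3. Exonic circles had -0.26 over 25986.

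Among 8 summary values per library the lowest two-sided exact permutation p was 0.2, and 3 libraries against 3 cannot go below 0.1. Back-splice reads per 1000000 mapped reads were 12007 ± 2789 (SD, n = 3) in wild type and 15646 ± 2124 (SD, n = 3) in Adar1-2KO (two-sided exact permutation p = 0.2, adjusted 0.533 over 8 tests). For a circle, the circular share sets back-splice reads, counted at 2 ends, against the total with forward-splice reads. Its median was 26.2% ± 2.17 (SD, n = 3) against 30.6% ± 4.34 (SD, n = 3), with the same exact p. The difference of 4.39 points was 1.91 without replicate 3, and turned to -3.74 for circles with at least 5 reads. Of 7188 circles deep enough to test their circular share, 1 passed in limma, or 0.0139%, and 184 had an unadjusted p under 0.05, or 2.56%. It lies in Atxn1, which encodes ataxin 1 (GRCm39 chromosome 13, 45948985 to 46005932). Its back-splice reads were 34, 31 and 27 in wild type and 68, 86 and 108 in Adar1-2KO, and its forward-splice reads were 22377, 14699 and 12748 in wild type and 0 in all 3 Adar1-2KO libraries (limma adjusted p = 0.0105). Forward-splice counts of 0 were frequent, at 30.1% to 36.1% of the tested circles in the wild type libraries and 15.6% to 34.5% in Adar1-2KO.

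Lists of host genes are described by counts and medians beside those of all 6268 host genes, of which 7 passed and whose median log2 fold change was -0.07, or 0.01 without replicate 3. Library sizes from mapped reads would raise that median by 0.37, so medians are read against it. Of 18 measured hosts of known recoding sites, none passed, with a median of 0.02 (0.14 without replicate 3). Of 41 splicing and circular RNA regulators none passed with all 6 libraries, with a median of -0.04 (0.20 without replicate 3). Of 15 double-stranded RNA binding proteins none passed (median -0.18, or 0.0069 without replicate 3), and of 34 genes of double-stranded RNA sensing and interferon only 5 had enough reads to test and none passed (median -0.37, or -0.23 without replicate 3). Among 47 glutamatergic postsynaptic genes none passed (median -0.01, or -0.04 without replicate 3). Among 44 presynaptic genes none passed (median 0.02, or -0.03 without replicate 3), with Stxbp5 passing without replicate 3. Gabra2 was the only 1 of 20 GABAergic genes that passed, and the median was 0.36, or 0.15 without replicate 3. The summed level of the GABAergic list was 2196 to 2469 CPM in wild type and 3015 to 3522 CPM in Adar1-2KO, which includes Gabra2. Among 38 voltage-gated channels none passed (median -0.13, or -0.06 without replicate 3). Of 30 known abundant hosts of brain circles none passed (median -0.14, or -0.12 without replicate 3). Their summed level was 128970 to 139100 CPM in wild type and 115600 to 127690 CPM in Adar1-2KO. At an unadjusted p under 0.05 in edgeR, 6 of the 30 were lower and 2 higher, against 242 and 273 of all 6268. A230057D06Rik was the 1 of 5 measured imprinted transcripts of the Prader-Willi interval that passed, and their median was -0.24, or -0.43 without replicate 3.

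Markers of cell types and regions were read the same way. Of 11 neuronal, 10 oligodendrocyte, 9 astrocyte, 3 microglial and 6 endothelial or pericyte markers measured, none passed, and their medians were 0.05, -0.19, -0.15, 0.33 and -0.28. Without replicate 3 the medians were -0.06, -0.0015, 0.12, 0.36 and 0.20, so those of neuronal, astrocyte and endothelial or pericyte markers changed sign. Of 11 ependymal and choroid plexus markers Wdr49 alone passed. The summed level of that list was 978 to 1123 CPM in wild type and 706 to 1179 CPM in Adar1-2KO, with a median of 0.00 (0.10 without replicate 3), and 6 of the 11 were higher. Of 10 markers of cortex and hippocampus Zbtb20 alone passed, and the median was -0.18, or 0.15 without replicate 3. None of 8 cerebellar or 6 striatal markers passed, with medians of -0.28 and 0.17, or -0.03 and 0.35 without replicate 3. Whole brain was labelled for every library, and markers of each of these types were present in both genotypes.

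Circles at an unadjusted p under 0.05 in edgeR were also counted by place. On chromosome 7 they made up 185 of 1445 circles, or 12.8%, against 8.47% over all circles. In the imprinted interval from Ube3a to A330076H08Rik (GRCm39 chromosome 7, 58847605 to 61768791) they were 26 of 101, or 25.7%, with 8 higher and 18 lower. Chromosome 7 outside this interval held 11.8%. Among 132 windows of 10 Mb with at least 100 circles, the highest share was in the window of chromosome 7 that starts at 60000001, with 42 of 119, or 35.3%, and 30.1% without replicate 3. The window of chromosome 2 that starts at 50000001, next to that of Ifih1, was second, with 27 of 120, or 22.5%.

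Within 10 Mb of any of the 4 altered genes, 93 of 823 circles had an unadjusted p under 0.05, or 11.3%, and 12.7% without replicate 3. The share was 12.6% around Adarb1, 12.5% around Ifih1, 10.5% around Gria2 and 7.9% around Adar. By distance from the nearest altered gene it was 12.1% within 5 Mb, 10% at 5 to 10 Mb and 7.52% at 10 to 20 Mb. Wdr49 lies within 10 Mb of Gria2, Cabin1 within 10 Mb of Adarb1, and Lrba within 10 Mb of Gria2 and of Adar. An altered allele is inherited together with the DNA around it, and for these circles the effect of the alleles and that of flanking sequence cannot be told apart. Of the circles that passed, those of Stxbp5, Lrp1b, Zbtb20 and A230057D06Rik lie outside these flanks.

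**Figure D5:**
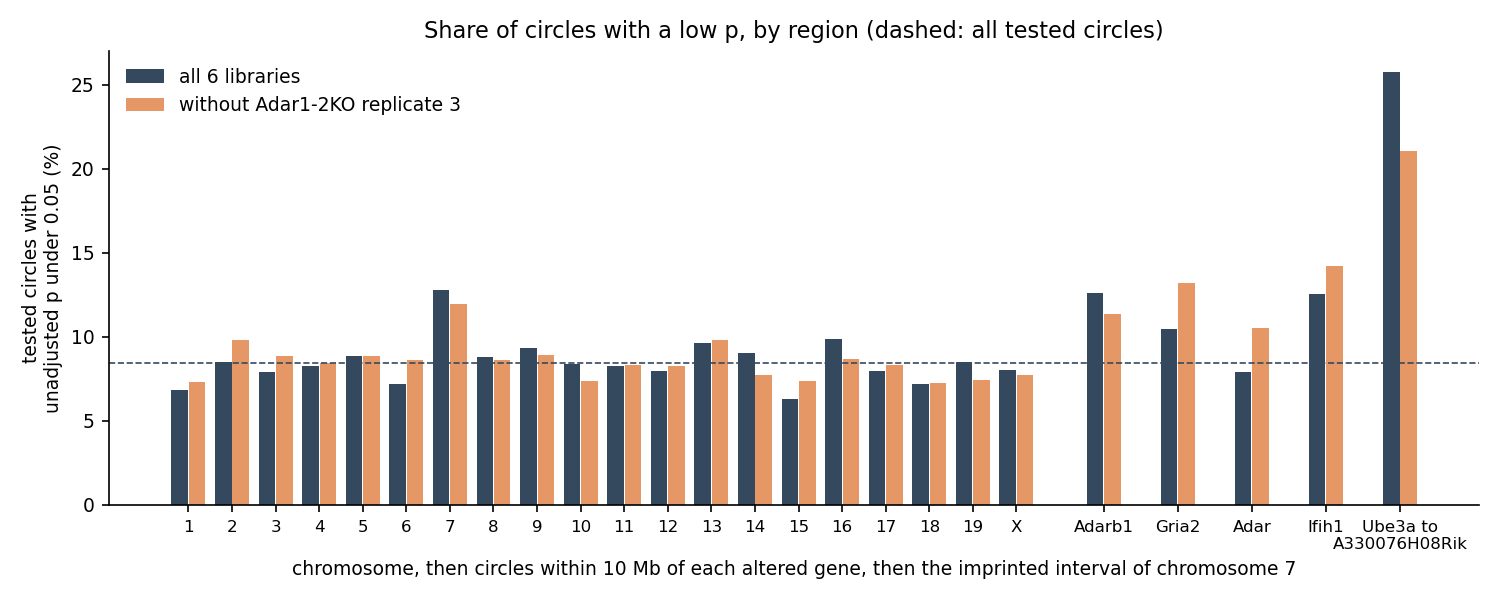
Percent of tested circles with an unadjusted p under 0.05 in edgeR (vertical axis) by chromosome, within 10 Mb of each altered gene, and in the imprinted interval of chromosome 7 (horizontal axis), with a dashed line at the 8.47% of all circles. The imprinted interval stands highest at 25.7%, and chromosome 7 is the highest chromosome at 12.8%.

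The Nanopore libraries of these genotypes gave a second reading of the same kind of cDNA, without wild type replicate 1. Of the 20 circles that passed with or without replicate 3, 17 were listed there in wild type or Adar1-2KO. The direction was the same for 15, and opposite for Zbtb20 and for the Rims2 circle of exons 18 to 20. The 20 circles were chosen by their Illumina values, and shares over all Nanopore circles were not counted. These counts are a description only. The Stxbp5 circle had no Nanopore read in wild type and 79, 49 and 137 in Adar1-2KO. The Lrp1b circle had 15 and 26 reads against 262, 121 and 442, means of 106 and 549 per 1000000 reads, and the Wdr49 circle had 64 and 47 against none. A Nanopore zero at an exact position can occur for an abundant circle. The Rims2 circle of exons 20 to 22, among the 10 most abundant on Illumina, had 1386 and 0 Nanopore reads in wild type and none in Adar1-2KO.

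The authors' deposited table of this comparison holds 160909 circles, of which 54 had an adjusted p under 0.05, with 20 higher and 34 lower. In the authors' deposited table the Stxbp5 circle had a log2 fold change of 5.41 (adjusted p = 5.19e-05 in DESeq2) and the Wdr49 circle -6.28 (adjusted p = 5.19e-05 in DESeq2). Lrp1b and Zbtb20 were at 2.34 and 1.44 in the authors' deposited table and did not pass there. Dennd1b passed in the authors' deposited table at 8.93 (adjusted p = 7.99e-07 in DESeq2). The Rims2 circle of exons 18 to 20 passed there as well, at -7.51. Its 1762 reads in Adar1-2KO replicate 3, against none in replicates 1 and 2, are left out of such a fold. A Nav2 circle with no wild type read and 6, 6 and 483 in Adar1-2KO had a base mean of 2.13 there. The deposited values are therefore to be read beside the fit without replicate 3, not that of all 6 libraries.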

How the data were processed

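Circular RNA of whole brains was measured in 3 wild type and 3 Adar1-2KO Illumina libraries. The submitters' processing notes name bcl2fastq, BWA 0.7.17, CIRIquant 1.1.2 and the build GRCm39. The deposited CIRIquant tables hold counts of back-splice and forward-splice reads per circle, a junction ratio as a fraction from 0 to 1, and a CPM of back-splice reads relative to mapped reads, per the file headers and the values. In the Adar1-2KO tables the values stand 1 column right of their headers, which was corrected. The deposited CIRI2 tables and Nanopore tables hold counts from 2 upward, and the Nanopore caller is not given in the sources used here. The authors' deposited comparison, made with DESeq2 2.11.40.8 per the submitters' processing notes, holds a base mean signal, a log2 fold change and an adjusted p-value.

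The circle, defined by chromosome, start and end, was the unit, and host genes were those of the deposited tables, with predicted genes and small RNAs set aside where 1 other name remained. Circles with at least 5 back-splice reads in at least 3 of the 6 libraries, and host genes with at least 10, were tested in edgeR 4.0.16 (two-sided quasi-likelihood F-test, TMM library sizes) with Benjamini-Hochberg adjustment at 0.05 over all features tested. The circular share was the log2 ratio of back-splice (counted at both ends) to forward-splice reads, each plus 0.5. It was fitted by limma 3.58.1 where each library had at least 20 reads. Values per library were set side by side with an exact permutation test, two-sided. The edgeR fit of circles and the limma fit of the circular share were tested on simulated data. Alternatives were DESeq2 1.42.0, other scalings, filters and dispersion settings, CIRI2 counts, the replicate number as a block, all 9 libraries, the libraries of 1 flow cell, and each library left out in turn. Replicate numbers did not pair the libraries.

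The genes named were the circles that passed, the 5 of lowest p in each direction that did not, up to 10 in each direction that passed only without Adar1-2KO replicate 3, the most read circles of the altered genes, the 10 most abundant circles, and list members that passed or were most abundant. Circles of the same hosts, and 1 Rims2 circle, were added after their values were seen. The members and lists were chosen with earlier results of these data known. Exon numbers and junction sequences come from GENCODE vM21, which is on GRCm38, by host symbol and the exact distance between exon start and exon end. No coordinates were converted. This matched 31 of 35 named circles with 1 host.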

Additional observations from a re-analysis of the deposited data

How the results depend on the processing

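Counts of calls depended strongly on the fit. Of 28595 circles, 5 passed in the main fit. On the same 28595, an adjusted p of 0.1 gave 9, the older quasi-likelihood fit 9 and a robust prior 16. DESeq2 gave 88 of 20358 (28 higher, 60 lower). Sets of other sizes gave 513 of 160910 with no filter, 20 of 38297 with all 9 libraries, and 2 of 10647 for circles listed in all 6. The fits of flow cell 1 hold 1 Adar1-2KO library, replicate 2, so no count is given for them. Their median log2 value was -0.04 for circles, -0.0035 for host genes and 0.04 for the circular share. Leaving out 1 library gave 0 to 20, of 23411 to 27385 circles tested. Without Adar1-2KO replicate 3, DESeq2 gave 574 and the robust prior 29 of 27385 circles. A filter of 2 libraries gave 24 of 39148, or 0.0613%. With the replicate number as a block edgeR gave 0 of 28595 circles (889 at an unadjusted p under 0.05). CIRI2 counts, which lack Adar1-2KO replicate 1, gave 0 of 30531 in edgeR (4790 at an unadjusted p under 0.05). Of 6268 host genes, 7 passed in the main fit. On the same genes, mapped reads as library size gave 3, the older fit 3 and the replicate block 1. DESeq2 gave 29 of 4156, no filter 171 of 13062 and all 9 libraries 12 of 7036. With 1 library left out, 1 to 27 passed, of 5793 to 6144 genes tested. For the circular share, where 1 of 7188 passed in limma, at least 10 reads gave 2 of 8490. At least 20 reads in 3 libraries gave 0 of 23335 (857 at an unadjusted p under 0.05), and the replicate block 0 of 7188 (171). With 1 library left out, 0 to 1 passed, of 7533 to 11678 circles tested. Same-numbered libraries had correlations of 0.006, -0.010 and -0.030 in their deviations, so the numbers do not pair them.

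The mean difference of the median circular share was 4.39 percentage points, and -3.74 for circles with at least 5 reads. The Rims2 circle of exons 18 to 20 had a fitted log2 value of 1.57 and, without each library in turn, -10.004 to 2.1527. Without replicate 3 it reversed to -10.004, to -9.57 with DESeq2 as well, to -10.004 with a robust prior and to -10.009 with a filter of 2 libraries; these fits meet a group without reads and give no bound. Library sizes from mapped reads raised the median log2 fold change of circles by 0.31 and of host genes by 0.37, and leaving out replicate 3 raised that of circles by 0.25. The 5 circles kept their direction under each of these. Depth ranged from 1516772 to 4308264 back-splice reads, and circles under 5 reads in most libraries were not tested. The settings for the older fit, the robust prior and the fits that join leaving out replicate 3 with another choice were added after the data were seen, as was flow cell 1 alone for the circular share. The cause of the other changes was not tested.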
